A study of Homo sapiens with 15 samples.

Results

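The 3 classical dynamin genes DNM1, DNM2 and DNM3, together with DNM3OS, a non-coding gene on the opposite strand inside DNM3, were followed in HSSYII cells. HSSYII is an established human cell line from a synovial sarcoma with the fusion SS18-SSX1, in which part of the SWI/SNF chromatin remodelling subunit SS18 is joined to part of SSX1. The members were taken by gene symbol from the count tables, giving 4 of 25681 gene symbols and 15 of 48104 transcript rows. RNA sequencing covered 5 groups of 3 libraries each. In the first experiment, cells received 100 nM dBRD9A, a small molecule that brings the bromodomain protein BRD9 to a ubiquitin ligase for degradation, or 0.0001% DMSO, for 6 h. In the second, cells were transduced with a lentivirus at a multiplicity of infection of 1.0 and collected at 96 h. That virus carried the hairpin shSS18-SSX1-1, the hairpin shSS18-SSX1-2, or shRenilla, a control against a luciferase that human cells lack. No drug selected for transduced cells, so cells without a hairpin may be present, and all 5 groups share the single HSSYII line. The 2 experiments differed in time, delivery and control at once, and these differences cannot be told apart between them. The members were selected on their log2 fold changes in both comparisons, which were known from earlier work on these data, so their differences from DMSO and from shRenilla are given below as descriptions, without a test.

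Dynamins are large GTPases that assemble as a helix around the neck of a budding vesicle and cut it from the membrane. DNM1 is the neuronal form that serves synaptic vesicle recycling, DNM2 is made in nearly every tissue, and DNM3 is best known from brain and testis. DNM3OS is the long precursor RNA from which the microRNAs miR-199a and miR-214 are cut, and in mouse embryos its transcription depends on the basic helix-loop-helix factor Twist1. Each of the 3 dynamin genes carries a miR-199 precursor on its opposite strand.

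In the annotation used here (GENCODE on GRCh37), DNM3 spans chr1:171787027-172387606 on the plus strand. DNM3OS spans chr1:172107537-172113980 on the minus strand. It lies in the intron between exons 14 and 15 of the 21-exon DNM3 transcript, and overlaps 0 annotated DNM3 exons. Within DNM3OS, MIR199A2 sits near the 5′ end at chr1:172113675-172113784 and MIR214 near the 3′ end at chr1:172107938-172108047. MIR3120, at chr1:172107948-172108028, lies inside MIR214 on the plus strand, the strand of DNM3. On chromosome 9, DNM1 spans chr9:130953934-131017527 and carries MIR199B and MIR3154 on its opposite strand, in the intron between exons 15 and 16. On chromosome 19, DNM2 spans chr19:10828731-10944164 and carries MIR199A1 on its opposite strand, between exons 15 and 16.

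**Figure D1:**
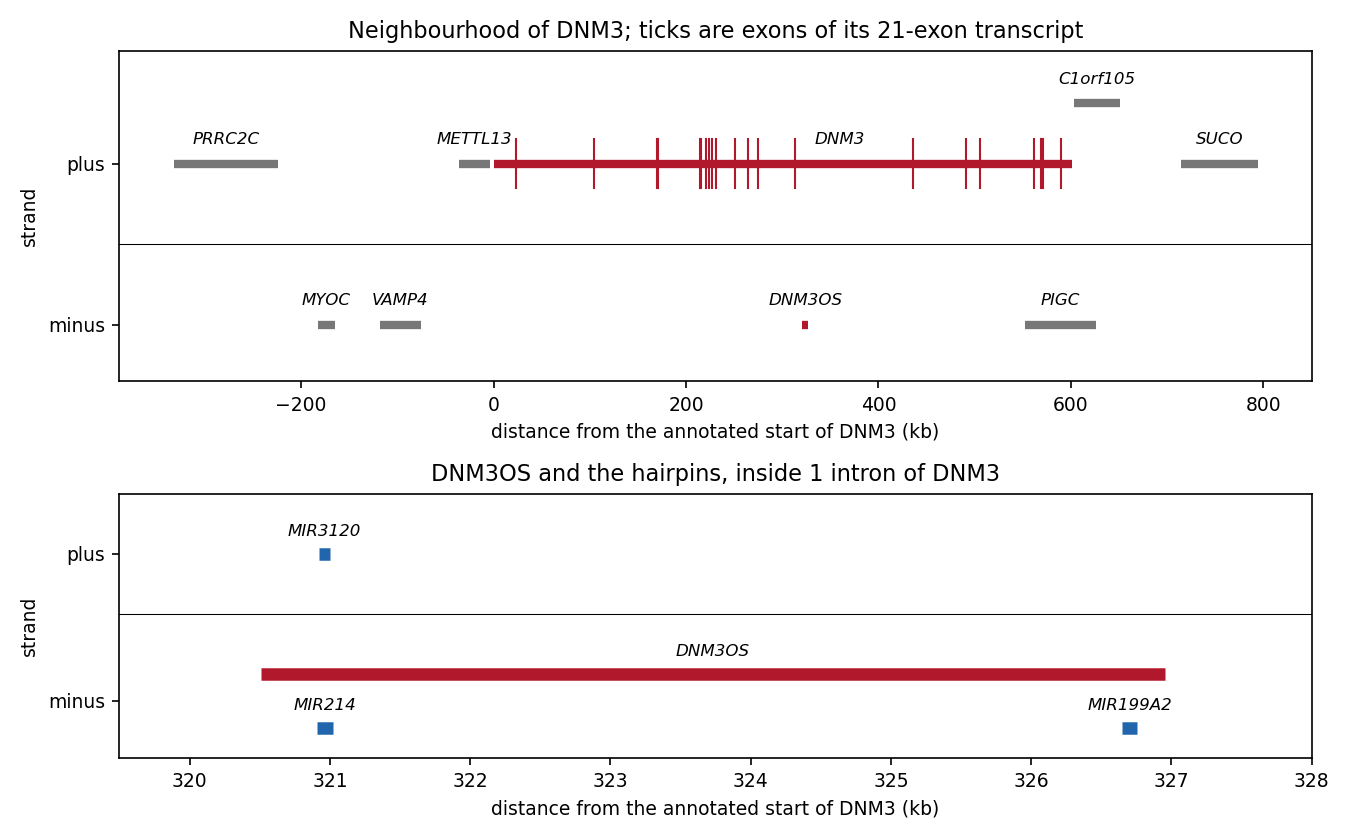
Map of DNM3 and its neighbours, drawn to scale as distance in kb from the annotated start of DNM3 (GENCODE on GRCh37), with plus-strand genes above the line and minus-strand genes below it. The lower panel enlarges DNM3OS, which runs from 320.5 to 327.0 kb, with MIR199A2 and MIR214 near its ends and MIR3120 opposite MIR214.

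The mature microRNAs of these hairpins are shown because they tell which product each hairpin row stands for and which rows lie over the same bases. Sequences are from RefSeq (GRCh38.p14), written 5′ to 3′ with the seed, bases 2 to 8, in capitals.
hsa-miR-199a-3p: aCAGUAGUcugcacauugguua
hsa-miR-199b-3p: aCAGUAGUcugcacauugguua
hsa-miR-199a-5p: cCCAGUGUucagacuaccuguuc
hsa-miR-214-3p: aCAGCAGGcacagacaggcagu
hsa-miR-214-5p: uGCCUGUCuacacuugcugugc
hsa-miR-3120-3p: cACAGCAAguguagacaggca
hsa-miR-3120-5p: cCUGUCUGugccugcuguaca
The 3p strands of the DNM1, DNM2 and DNM3 hairpins (miR-199b-3p and miR-199a-3p) are the same sequence with the seed CAGUAGU, so they share 1 seed group. Among the strands shown, the other 5 each have a seed of their own. Over 2370 human mature microRNAs, CAGCAGG, the seed of miR-214-3p, stood in 3. MIR199A1 in DNM2 and MIR199A2 in DNM3 give the same pair of miR-199a strands. Mature microRNAs were not measured: the libraries hold longer RNA, and a hairpin row counts reads over those bases.

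DNM3 and DNM3OS start at separate sites on opposite strands, and their RefSeq promoter windows (GRCh38.p14, 250 bases before to 50 after the start) are shown because the values of the 2 transcripts went apart in the knockdown. In the window of DNM3, at chr1:171841248-171841547 on the plus strand, capitals mark the GC box GGGCGG read on either strand.
DNM3 promoter: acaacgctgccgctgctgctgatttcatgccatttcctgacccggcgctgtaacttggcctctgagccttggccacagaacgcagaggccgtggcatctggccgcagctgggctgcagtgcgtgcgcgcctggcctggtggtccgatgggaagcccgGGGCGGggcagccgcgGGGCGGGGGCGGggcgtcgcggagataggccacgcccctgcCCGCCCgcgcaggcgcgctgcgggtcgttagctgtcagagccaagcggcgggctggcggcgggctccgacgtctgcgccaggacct
In the window of DNM3OS, at chr1:172144786-172145085 on the minus strand, capitals mark the E-box CANNTG, the motif of basic helix-loop-helix factors, and 1 CArG box, the motif of serum response factor.
DNM3OS promoter: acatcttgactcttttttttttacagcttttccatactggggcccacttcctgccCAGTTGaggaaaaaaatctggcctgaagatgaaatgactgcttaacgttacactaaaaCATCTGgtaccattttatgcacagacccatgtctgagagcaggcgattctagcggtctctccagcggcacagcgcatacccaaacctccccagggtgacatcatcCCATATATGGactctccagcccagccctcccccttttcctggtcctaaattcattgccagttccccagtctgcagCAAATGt
The DNM3 window had 72.7% G and C and 35 CpG dinucleotides, against 48.7% and 5 in the DNM3OS window and medians of 58.7% and 14 over 35116 promoters. The GC box was found 4 times in the DNM3 window, with 2 of the matches adjoining, and in 45% of all promoters. The DNM3OS window held 3 E-boxes, starting at bases -195, -137 and 44 from the transcript start, and such a motif stood in 68.7% of all promoters. The CArG box started at base -32 and was rarer, in 1.29% of promoters. The DNM3 window held 2 E-boxes, not capitalised here. These matches describe the letters of the windows and are no evidence of binding.

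Total counts per library, with 1 row kept per gene, ranged between 18580419 and 27031647. Replicates lay close together in the dBRD9A experiment (biological coefficient of variation 2.78%, against 8.91% in the shRNA experiment). The library shRenilla replicate 1 stood apart from the other shRenilla libraries, with a chi-square per degree of freedom of 34.6 and 25.6, against at most 9.32 between any other replicates of the shRNA experiment. SSX1, whose sequence the fusion carries, averaged 20.0 ± 1.2 CPM (counts scaled to library size) under hairpin shSS18-SSX1-1 and 28.5 ± 0.75 CPM under hairpin shSS18-SSX1-2, against 63.6 ± 11.3 CPM with shRenilla (SD, n = 3 each). BRD9 mRNA, which a degrader of the protein does not target, averaged 93.3 ± 3.32 CPM with dBRD9A and 89.0 ± 3.10 CPM with DMSO. The synovial sarcoma marker TLE1 lay between 175 and 201 CPM in all 15 libraries. Markers of other cell types moved with the hairpins, and some with dBRD9A. Summed over 12 fibroblast genes the level was 1366 to 1434 CPM with shSS18-SSX1-1 and 1531 to 1681 CPM with shSS18-SSX1-2, against 229 to 239 CPM with shRenilla, and all 6 tested genes of that list rose. The untested genes, COL1A2, COL6A3, DCN, LUM, POSTN and FAP, had at most 18 reads each in either hairpin group. Summed over 8 smooth muscle genes the level was 2549 to 2930 CPM over both hairpins, against 751 to 949 CPM with shRenilla, with 7 of 8 genes higher. Marker counts here took an adjusted p under 0.05 by edgeR at any fold. That was met by 44.6% of all genes in the knockdown and 35.9% with dBRD9A. PDGFRB and ACTA2, with 14 and 2 reads over shRenilla, reached the test only through the hairpin libraries and could hardly come out lower. Nothing is therefore read from the 2 counts that hold them. Summed over 8 epithelial genes it was 65.5 to 68.3 CPM with shSS18-SSX1-1 and 133 to 159 CPM with shSS18-SSX1-2, against at most 0.637 CPM with shRenilla, where CLDN4, EPCAM, KRT19 and KRT7 were at 0. Most of the hairpin sums came from KRT8 and KRT18, at 27.3 and 38.1 CPM with shSS18-SSX1-1 and 57.5 and 83.6 CPM with shSS18-SSX1-2. CLDN4, CLDN7, EPCAM, KRT19 and KRT7 stayed near 0, with at most 11 reads each in either hairpin group. Endothelial genes summed to at most 1.88 CPM in any library, with CDH5 and KDR at 0 in every group, and leukocyte genes to at most 6.85 CPM with MS4A1 at 0 in every group. Between dBRD9A and DMSO the fibroblast sum was 94.8 to 98.0 CPM with dBRD9A and 99.0 to 101 CPM with DMSO, with 2 of 6 tested genes higher and 2 lower. COL1A1 was higher by 0.69 on the log2 scale and COL5A1 by 0.27, while THY1 and FBN1 had -0.165 and -0.161. In the fit of all 15 libraries 1 fibroblast gene was higher and 0 were lower. The smooth muscle sum was 682.5 to 692.8 CPM with dBRD9A and 657 to 674 CPM with DMSO, with 3 of 7 tested genes higher and 1 lower. The neuronal sum was 62.98 to 69.1 CPM with dBRD9A and 53.4 to 59.1 CPM with DMSO, with 3 of 5 tested genes higher, among them RBFOX3 by 0.93 on the log2 scale. Over the hairpins the neuronal sum was 69.2 to 88.4 CPM, against 80.9 to 101 CPM with shRenilla, with 2 of 5 lower. The part of these markers in the results below was not tested.

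DNM3 was the member that differed most between groups, and it was lower with dBRD9A than with DMSO but higher with both SS18-SSX1 hairpins than with shRenilla. DNM3 had 27.1, 27.0 and 25.9 CPM with dBRD9A, against 32.7, 30.4 and 33.7 CPM with DMSO. All 3 dBRD9A libraries lay below all 3 DMSO libraries, and the log2 fold change was -0.26 (SE 0.0550), a ratio of 0.834. In the shRNA experiment DNM3 had 92.7, 86.8 and 94.8 CPM with shSS18-SSX1-1 and 86.4, 83.3 and 73.5 CPM with shSS18-SSX1-2, against 34.8, 46.7 and 40.7 CPM with shRenilla. All 6 hairpin libraries lay above all 3 shRenilla libraries, and the log2 fold change of the mean of both hairpins was 1.08 (SE 0.0915), a 2.11-fold higher level. Each hairpin alone gave 1.17 (SE 0.102, shSS18-SSX1-1) and 0.98 (SE 0.102, shSS18-SSX1-2), and without shRenilla replicate 1 the difference of the mean was 0.998. In order of group means, DNM3 stood at 91.4 CPM with shSS18-SSX1-1, 81.1 with shSS18-SSX1-2, 40.7 with shRenilla, 32.3 with DMSO and 26.7 with dBRD9A, and no 2 neighbours in this order overlapped. These values rested on 594 to 2313 DNM3 reads per library. As these are bulk samples, DNM3 RNA in more cells and more DNM3 RNA per cell cannot be told apart.

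**Figure D2:**
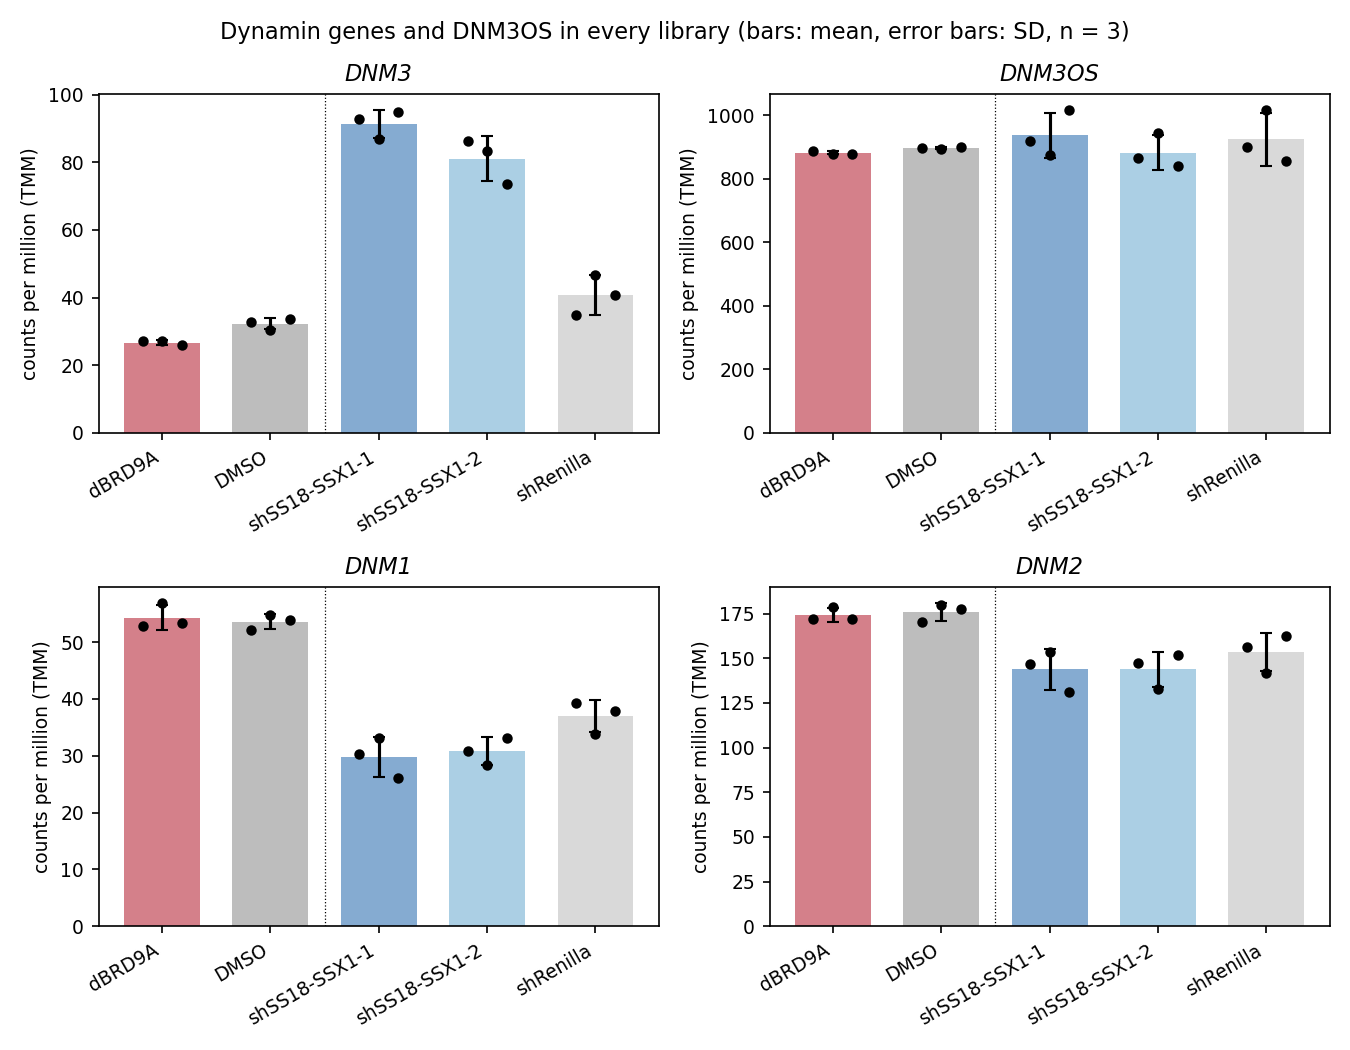
CPM of DNM3, DNM3OS, DNM1 and DNM2 (vertical axes, from 0) in each of the 15 libraries, with bars at the group means and error bars of 1 SD (n = 3), dBRD9A and DMSO to the left of the dotted line and the 3 hairpins to its right. DNM3 separated the hairpins (73.5 to 94.8 CPM) from shRenilla (34.8 to 46.7 CPM), whereas DNM3OS kept within 839 to 1017 CPM in all libraries.

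By the call used for the members (adjusted p under 0.05 by edgeR with a fold above 1.5), 0 of 4 members were called between dBRD9A and DMSO, where 2.83% of 13652 genes were. At any fold 1 member, DNM3, passed, beside 35.9% of all genes, and 2 members had ranges that did not overlap, beside 45.7%. Between the knockdown and shRenilla 1 member, DNM3, was called, beside 18.4% of 14269 genes. At any fold 2 members passed, DNM3 and DNM1, beside 44.6%, and the same 2 had ranges that did not overlap, beside 38.9%. Against shRenilla at any fold, 2 members passed with shSS18-SSX1-1 alone and 1, DNM3, with shSS18-SSX1-2 alone. The share of all genes was not taken for the single hairpins. Since the members were picked with these comparisons known, nothing is read from these counts. Among all genes tested, the difference of DNM3 stood at percentile 8.14 with dBRD9A and at percentile 92.7 in the knockdown, counted from the lowest.

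The 3 transcript rows of DNM3 did not all follow that pattern. NM_015569 and NM_001136127 had the same count in each of the 15 libraries and are treated as 1 value, the one given above. The row NM_001278252 had 133, 149 and 146 reads with dBRD9A, against 134, 138 and 88 reads with DMSO. On the CPM scale this row averaged 5.98 ± 0.39 with dBRD9A and 5.41 ± 1.01 with DMSO, with overlapping ranges and a log2 ratio of means of 0.14, on the other side of 0 from the NM_015569 row (-0.28). In the shRNA experiment it had 320, 238 and 338 reads with shSS18-SSX1-1 and 275, 306 and 239 reads with shSS18-SSX1-2, against 235, 212 and 211 reads with shRenilla. Its mean over both hairpins was 12.9 ± 1.0 CPM, against 9.55 ± 0.73 CPM with shRenilla, a ratio of 1.36 where the NM_015569 row gave 2.12. The count of NM_001278252 as a share of the count of NM_015569 was 20.6%, 22.1% and 24.6% with dBRD9A, against 18.5%, 19.6% and 12.6% with DMSO, with DMSO replicate 3 the lowest of all libraries. It was 15.6%, 14.7% and 14.6% with shSS18-SSX1-1 and 14.3%, 14.4% and 16.6% with shSS18-SSX1-2, against 25.4%, 20.5% and 25.2% with shRenilla. Every hairpin library lay below every shRenilla library. The rows count many of the same reads, so they are not independent. In the annotation, 1 of the DNM3 transcripts, with 15 exons, ends 315.5 kb after the annotated start, ahead of DNM3OS, while the 21-exon transcript runs on past it. The exons behind NM_001278252 were not matched to one of these transcripts.

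DNM3OS showed little of what DNM3 showed. It had 887, 878 and 879 CPM with dBRD9A, against 895, 894 and 899 CPM with DMSO. The ranges were apart, but the ratio of the means was 0.984 and the fitted log2 fold change -0.01 (SE 0.0246). With the hairpins it had 918, 875 and 1015 CPM (shSS18-SSX1-1) and 864, 942 and 839 CPM (shSS18-SSX1-2), against 898, 1017 and 856 CPM with shRenilla. The ranges overlapped fully, and the log2 fold change was -0.03 (SE 0.0746), with a 95% interval of -0.19 to 0.13. In order of its group means, between 936 CPM with shSS18-SSX1-1 and 882 CPM with dBRD9A, each group overlapped the next. Its second transcript row, NR_103486, averaged 674 ± 4.6 CPM with dBRD9A and 657 ± 4.9 CPM with DMSO, a ratio of 1.02 in the direction opposite to that of the row NR_038397 used above. The count of NR_103486 as a share of that of NR_038397 was 76.5%, 76.4% and 76.3% with dBRD9A, against 73.9%, 72.9% and 73.2% with DMSO. In the knockdown the ratio of NR_103486 was 0.973, and its ranges overlapped.

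Within a library, the ratio of DNM3 to DNM3OS reads does not depend on scaling, though it is not a ratio of molecules because the rows differ in length. It was 3.05%, 3.08% and 2.95% with dBRD9A, against 3.65%, 3.40% and 3.75% with DMSO. It was 10.1%, 9.92% and 9.33% with shSS18-SSX1-1 and 10.0%, 8.84% and 8.75% with shSS18-SSX1-2, against 3.87%, 4.60% and 4.75% with shRenilla. The 2 hairpin groups overlapped each other. Both lay apart from shRenilla, and dBRD9A lay apart from DMSO. The difference of DNM3 in both comparisons was thus also present relative to the antisense transcript inside it.

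Among the hairpin rows inside DNM3OS, MIR199A2 and MIR3120 were higher with dBRD9A than with DMSO by small amounts, while MIR214 overlapped. A difference between the 5′ and the 3′ hairpin was not tested. MIR199A2 had 25.5, 24.7 and 24.8 CPM with dBRD9A, against 21.4, 21.2 and 21.7 CPM with DMSO, with a log2 fold change of 0.24 (SE 0.0576). All 3 dBRD9A libraries were above all 3 DMSO libraries, the reverse of DNM3. With the hairpins MIR199A2 had 13.8, 13.5 and 14.9 CPM (shSS18-SSX1-1) and 11.4, 11.0 and 9.06 CPM (shSS18-SSX1-2), against 8.88, 8.36 and 10.1 CPM with shRenilla. Libraries of shSS18-SSX1-1 all lay above those of shRenilla (log2 fold change 0.63, SE 0.117), and those of shSS18-SSX1-2 overlapped them (0.20, SE 0.119). As a share of DNM3OS reads, MIR199A2 was 2.82% to 2.87% with dBRD9A, against 2.37% to 2.42% with DMSO, and 1.08% to 1.55% over both hairpins, against 0.822% to 1.18% with shRenilla. MIR214 had 31.4, 29.98 and 29.2 CPM with dBRD9A, against 26.6, 29.8 and 27.4 CPM with DMSO, and these overlapped (log2 fold change 0.12, SE 0.0564, 95% interval 0.00909 to 0.239). MIR3120, over the same bases, had 24.3, 22.99 and 23.3 CPM with dBRD9A, against 20.05, 22.3 and 20.1 CPM with DMSO, with ranges apart and a log2 fold change of 0.19 (SE 0.0615). As MIR214 and MIR3120 lie over the same bases, they are not separate results. In the edgeR fit of all 15 libraries MIR199A2 and MIR3120 no longer passed an adjusted p under 0.05. MIR3120 also no longer passed with DESeq2, or without DMSO replicate 1 or 3 or dBRD9A replicate 1. In the shRNA experiment MIR214 had 42.2, 46.1 and 46.4 CPM with shSS18-SSX1-1 and 40.5, 43.4 and 41.5 CPM with shSS18-SSX1-2, against 58.6, 41.7 and 39.9 CPM with shRenilla. The highest MIR214 value was that of shRenilla replicate 1, the library that stood apart, and the groups overlapped. MIR3120 had 32.3 to 35.5 CPM with shSS18-SSX1-1 and 30.3 to 31.5 CPM with shSS18-SSX1-2, against 29.8 to 48.4 CPM with shRenilla.

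MIR199A2 and MIR214 are both 110 bases long, so their counts can be set against each other. The count of MIR199A2 as a share of that of MIR214 was 81.0%, 82.5% and 84.9% with dBRD9A, against 80.2%, 71.0% and 79.4% with DMSO. It was 32.6%, 29.3% and 32.2% with shSS18-SSX1-1 and 28.3%, 25.4% and 21.8% with shSS18-SSX1-2, against 15.2%, 20.1% and 25.2% with shRenilla. Every library of the 6 h experiment thus stood at 71.0% or above and every library of the 96 h experiment at 32.6% or below, controls included. MIR3120, read from the opposite strand of the same bases as MIR214, gave 71.4% to 82.7% of the MIR214 count in every library. The counting setting for strand is not given in the sources used here, and the counts of this pair do not separate the strands. Reads over MIR214 and MIR3120 are therefore reported as those of the locus and not of 1 strand. Of the precursors at the other dynamin genes, MIR199A1 in DNM2 had 1 read with dBRD9A and 1 with shRenilla, MIR199B in DNM1 had 1 with shRenilla, and both had 0 in the other groups. MIR3154 in DNM1 had 0 reads in every library. MIR638, on the strand of DNM2, had 4 reads over the dBRD9A libraries and 6 over the DMSO libraries, and 20 over the 6 hairpin libraries and 9 over the 3 shRenilla libraries.

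**Figure D3:**
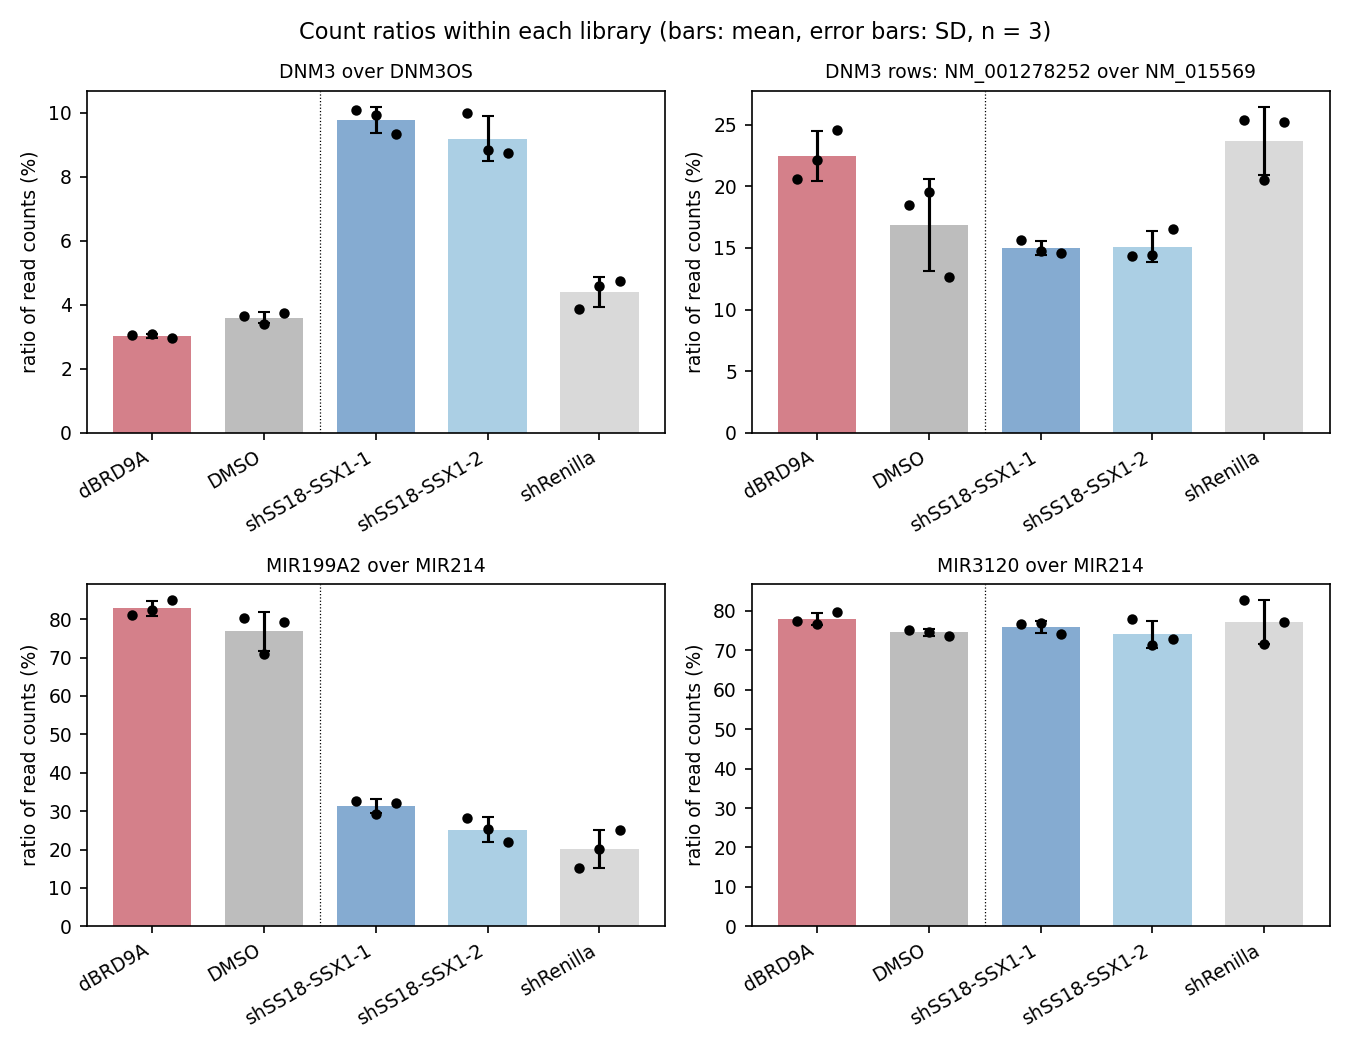
Ratios of read counts within each library in percent (vertical axes, from 0), with bars at the group means and error bars of 1 SD (n = 3). DNM3 over DNM3OS was 8.75% to 10.1% with the hairpins and 3.87% to 4.75% with shRenilla, and MIR199A2 over MIR214 separated the 2 experiments, while MIR3120 over MIR214 lay between 71.4% and 82.7% throughout.

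The other dynamins differed less. DNM1 had 52.8, 56.9 and 53.3 CPM with dBRD9A, against 52.2, 54.7 and 54.0 CPM with DMSO, and the log2 fold change was 0.03 (SE 0.0445) with overlapping ranges. It had 30.3, 33.1 and 26.1 CPM with shSS18-SSX1-1 and 30.9, 28.4 and 33.2 CPM with shSS18-SSX1-2, against 39.3, 33.8 and 37.8 CPM with shRenilla. The hairpin libraries lay below the shRenilla libraries by a narrow margin, 33.2 against 33.8 CPM at the closest, and the log2 fold change was -0.29 (SE 0.0899), opposite in sign to DNM3, and -0.22 without shRenilla replicate 1. The 5 transcript rows of DNM1 shared this direction, at 26.3 to 30.9 CPM with shSS18-SSX1-2, against 32.1 to 36.99 CPM with shRenilla. DNM2 had 172, 179 and 172 CPM with dBRD9A, against 170.1, 179.7 and 178 CPM with DMSO. It had 147, 153 and 131 CPM with shSS18-SSX1-1 and 147, 133 and 152 CPM with shSS18-SSX1-2, against 156.5, 142 and 162 CPM with shRenilla. The DNM2 ranges overlapped in both comparisons, with log2 fold changes of -0.0017 (SE 0.0334) and -0.10 (SE 0.0738).

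**Figure D4:**
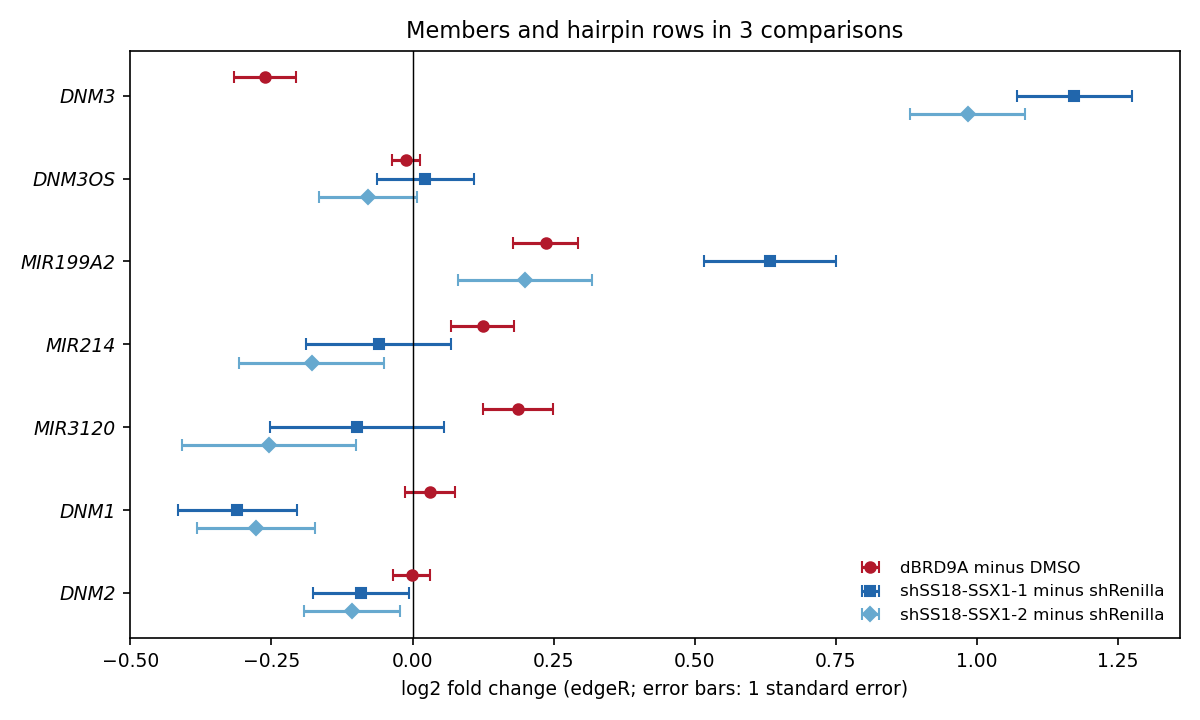
Log2 fold changes (horizontal axis, edgeR, error bars of 1 standard error) of the 4 members and the 3 hairpin rows inside DNM3OS, for dBRD9A minus DMSO and for each hairpin minus shRenilla. DNM3 stood at -0.26 with dBRD9A and at 1.17 and 0.98 with the hairpins, and DNM3OS at -0.01, 0.02 and -0.08; the 2 hairpin comparisons share the shRenilla libraries.

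The difference between the hairpins was not used to choose the members and was tested. DNM3 was lower with shSS18-SSX1-2 than with shSS18-SSX1-1, with ranges apart (beside 17.8% of genes), but the log2 difference of -0.19 (SE 0.0994, 95% interval -0.40 to 0.02) did not pass (edgeR adjusted p = 0.717, and 0.325 to 1.00 over the alternatives). DNM3OS differed by -0.10 (SE 0.0862, adjusted p = 0.937), DNM1 by 0.03 and DNM2 by -0.02 (adjusted p = 1.0 each, edgeR). By edgeR 0 of 4 members were called in this comparison, where 0.119% of genes were, 0 had an unadjusted p under 0.05, and 0 passed with DESeq2. MIR199A2 was lower with shSS18-SSX1-2 by -0.43 on the log2 scale (SE 0.116, ranges apart). It did not pass in the fit of the shRNA libraries (edgeR adjusted p = 0.187) and did so in the fit of all 15 libraries (0.0288), with a range of 0.0288 to 0.621 over the alternatives. A difference in MIR214 of -0.12 (SE 0.130) did not pass (adjusted p = 0.976, edgeR).

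For the neighbours of DNM3 and the lists that follow, a gene is said to have passed, risen or fallen at an adjusted p under 0.05 by edgeR at any fold, a threshold met by 35.9% of all genes with dBRD9A and by 44.6% in the knockdown. Of 14 listed neighbours on chromosome 1, 8 could be tested in the knockdown, where 2 rose, both past 1.5-fold, 1 fell and 5 did not pass. METTL13, a lysine methyltransferase whose end lies at -3.86 kb from the annotated start of DNM3, had a log2 fold change of -0.11 (SE 0.0673), and VAMP4, a SNARE of the trans-Golgi network, -0.06 (SE 0.0774), and neither passed. The annotated start is that of the longest reach of the gene, and the 21-exon DNM3 transcript starts at 23.6 kb on this scale. PIGC, an enzyme of GPI anchor synthesis whose annotated span overlaps the 3′ end of DNM3 on the opposite strand from 552.3 to 600.6 kb, fell, with a log2 fold change of -0.23 (SE 0.0635, adjusted p = 0.0094, edgeR). SUCO at 0.01 (SE 0.0738), PRRC2C at 0.09 (SE 0.0941) and the mesenchymal homeobox gene PRRX1 at 0.19 (SE 0.0807) did not pass. MYOC, the extracellular protein myocilin, whose annotated span lies between -182.5 and -165.2 kb, rose at low counts, with 84 reads over the 6 hairpin libraries and 2 over the 3 shRenilla libraries, a ratio of 22.0 with an exact counting interval of 5.90 to 185. Both shRenilla reads lay in replicate 3, without which the group was at 0, and the fitted log2 fold change of 4.17 (SE 0.590) was 3.58 without shRenilla replicate 1. FMO4, a flavin monooxygenase, rose by 1.15 on the log2 scale (SE 0.410, adjusted p = 0.0344, edgeR), with 57 reads over the hairpin libraries and 13 over shRenilla. It no longer passed with DESeq2, without any 1 of the 3 shRenilla libraries (log2 fold change 1.18, 1.14 and 1.19), without shSS18-SSX1-1 replicate 1 or 3 (1.05 and 1.14) or without shSS18-SSX1-2 replicate 1 or 2 (1.04 and 1.14). MYOC and FMO4, the 2 that rose, reached the test only through the hairpin libraries, so nothing is read from that count. The median over the 8 genes was 0.05, beside -0.01 over all genes tested.

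With dBRD9A, 0 of 6 tested neighbours rose and 3 fell, none past 1.5-fold, where 1 had an unadjusted p under 0.05 in the higher direction and 0 were higher with DESeq2. VAMP4 had a log2 fold change of -0.19 (SE 0.0476), PIGC of -0.10 (SE 0.0391) and PRRC2C of -0.08 (SE 0.0295), with adjusted p of 0.00233, 0.0410 and 0.0320 (edgeR). METTL13 at 0.09 did not pass, and the median over the 6 genes was -0.07, beside 0.01 over all genes. PIGC and PRRC2C no longer passed with DESeq2. PIGC did not pass without DMSO replicate 1 (-0.08) or dBRD9A replicate 2 or 3 (-0.09 and -0.10), nor PRRC2C without DMSO replicate 1 or 3 (-0.06 and -0.08) or dBRD9A replicate 1 or 2 (-0.07 each), and 0 neighbours passed in the lower direction in the fit of all 15 libraries.

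The genes most like DNM3 over the 15 libraries, by Pearson correlation of log2 CPM among 11068 genes averaging 5 CPM or more, were KCND1 (0.993), a voltage-gated potassium channel subunit, and TGFB2 (0.991), a transforming growth factor. ZNF217 (0.990), SIDT2 (0.990) and PAPSS2 (0.990) followed. TGFB2 averaged 18.3 CPM with dBRD9A and 22.3 CPM with DMSO, and 76.2 and 74.2 CPM with the 2 hairpins, against 30.04 CPM with shRenilla, the same order of groups as DNM3. For DNM3OS the closest genes were KIFAP3 (0.922), a kinesin-2 adaptor, PCMTD2 (0.890), TMEM59 (0.880), GSTA4 (0.878) and ACADM (0.875). DNM3 and DNM3OS had a correlation of 0.24. The 15 points share 5 groups and 2 experiments, and these correlations are a description.

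Of 16 listed genes of the wider dynamin superfamily, all tested, 9 rose in the knockdown, 7 of them past 1.5-fold, 3 fell and 4 did not pass (44.6% of all genes passed), with a median log2 fold change of 0.42, beside -0.01 over all genes. MX1, an antiviral dynamin-like GTPase, rose with a log2 fold change of 5.05 (SE 0.319, adjusted p = 2.48e-08, edgeR), averaging 11.7 ± 5.2 CPM with the hairpins (n = 6), against 0.336 ± 0.089 CPM with shRenilla (n = 3). GBP1, an interferon-induced guanylate-binding protein, rose by 5.17 (SE 0.206). MX2, a relative of MX1, had 636 reads over the hairpin libraries and 1 over shRenilla. Over the 3 shRenilla libraries MX1, GBP1, EHD2, GBP3, MX2 and GBP2 had 23, 19, 8, 3, 1 and 0 reads. They reached the test only through the hairpin libraries and could hardly come out lower. Nothing is therefore read from the count of rises or from the median. These genes were named after their values were seen. ATL1, an atlastin that fuses endoplasmic reticulum tubules, rose by 0.60 (SE 0.0968). EHD1 and EHD4, ATPases of endocytic recycling, rose by 0.56 and 0.29. The ATL1 relatives ATL2 and ATL3 had log2 fold changes of -0.52 (SE 0.0612) and -0.25 (SE 0.0658), both past the test. OPA1, of mitochondrial inner membrane fusion, was also lower, at -0.21 (SE 0.0621). DNM1L, the mitochondrial fission dynamin, also named after its values were seen, averaged 211 ± 4.3 CPM with the hairpins, against 200 ± 27 CPM with shRenilla, and did not pass (0.07, SE 0.0738). With dBRD9A 0 of 11 tested genes rose and 1 fell (1 was higher at an unadjusted p under 0.05, and 0 with DESeq2). That gene was MFN1, a mitofusin, at -0.18 (SE 0.0335, adjusted p = 0.000107, edgeR). In the edgeR fit of all 15 libraries MFN1 did not pass (adjusted p = 0.0591), and 1 gene of the list was higher and 0 lower.

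Dynamin is recruited to membranes by proteins with BAR and SH3 domains. In the knockdown 7 of 19 tested partners rose, 1 of them past 1.5-fold, 1 fell and 11 did not pass, so that 8 of 19 passed beside 44.6% of all genes, with a median of 0.11, beside -0.01 over all genes. SYNJ2, a phosphoinositide phosphatase, averaged 47.2 ± 3.4 CPM with the hairpins, against 23.3 ± 2.4 CPM with shRenilla, a log2 fold change of 1.01 (SE 0.0818, adjusted p = 2.54e-07, edgeR). BIN1, an amphiphysin, rose by 0.38 (SE 0.120) and SYNJ1 by 0.35 (SE 0.114), and PACSIN2 had -0.27 (SE 0.0811), the only fall. BIN1 no longer passed without shRenilla replicate 2 or 3 (0.24 and 0.37), nor PACSIN2 without shRenilla replicate 1 (-0.14). With dBRD9A 2 of 19 rose and 6 fell, none past 1.5-fold and beside 35.9% of all genes that passed, with a median of -0.06, beside 0.01. SNX18, a sorting nexin that binds dynamin, rose by 0.36 (SE 0.0650) and DNMBP, a dynamin-binding scaffold, by 0.23 (SE 0.0546). BIN1 fell, at -0.30 (SE 0.0548), as did SNX9, at -0.25 (SE 0.0400). In the fit of all 15 libraries 3 partners were lower in place of 6.

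Of the clathrin coat and its adaptors, 12 of 25 tested genes fell and 2 rose with dBRD9A, beside 35.9% of all genes that passed, and 1 of them, STON1, was past 1.5-fold. The median was -0.07, beside 0.01 over all genes. STON1, the stonin adaptor, averaged 12.0 ± 1.3 CPM with dBRD9A, against 20.9 ± 1.7 CPM with DMSO, a log2 fold change of -0.79 (SE 0.0768, adjusted p = 1.75e-09, edgeR). HIP1, which links clathrin to actin, had -0.42 (SE 0.0408) and FCHO1, an early organiser of coated pits, -0.40 (SE 0.108), and both passed. DAB2, a cargo adaptor, rose by 0.34 (SE 0.0519) and NECAP1 by 0.19 (SE 0.0449). In the fit of all 15 libraries 6 were lower and 1 higher. In the knockdown 8 of 25 rose, 5 of them past 1.5-fold, and 0 fell, beside 44.6% of all genes that passed, where 1 was lower at an unadjusted p under 0.05 and 0 with DESeq2, and the median was 0.12, beside -0.01. STON1 stood on the other side of 0 from its dBRD9A value, at 1.15 (SE 0.120), averaging 65.0 ± 8.8 CPM with the hairpins, against 29.3 ± 6.1 CPM with shRenilla. DAB2 rose by 0.92 (SE 0.0768) and AAK1, the adaptor-associated kinase, by 0.64 (SE 0.0740). When single libraries were left out, 6 to 12 genes rose, 12 of them without shRenilla replicate 1, and 0 to 2 fell. In the fit of all 15 libraries 10 rose and 1 fell. STON1 thus had the sign pattern of DNM3, lower with dBRD9A and higher with the hairpins, and was chosen for this remark after its values were seen. The difference between the 2 experiments was not tested.

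Caveolae are the membrane pits whose necks dynamin 2 has been described to cut. Of 7 listed caveola genes 5 could be tested in the knockdown. Of these, 4 rose, all past 1.5-fold, and 0 fell, beside 44.6% of all genes that passed. At an unadjusted p under 0.05 and with DESeq2, 0 were lower. PTRF, the coat protein cavin-1, averaged 768 ± 37 CPM with the hairpins, against 260 ± 29 CPM with shRenilla, a log2 fold change of 1.56 (SE 0.0805, adjusted p = 3.18e-09, edgeR). CAV1, CAV2 and SDPR had 0 reads in the 3 shRenilla libraries and 254, 163 and 189 reads over the 6 hairpin libraries. Taken against 3 reads over the shRenilla group, they were at least 44.3-fold, 28.4-fold and 33.0-fold higher. CAV1, CAV2 and SDPR were named after their values were seen. They reached the test only through the hairpin libraries and could only come out higher. Nothing is therefore read from the count of rises or from the median. With these genes at their bounds the median of the list was 4.83 (7.74 as fitted), beside -0.01 over all genes. The fibroblast and smooth muscle sums given above moved in the same direction, and their part in these counts was not tested. With dBRD9A 0 of 2 tested caveola genes passed in either direction, at an unadjusted p under 0.05 or with DESeq2.

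Some mRNAs have been described as targets of miR-199a or miR-214 in other cells. In the knockdown, where DNM3OS did not differ beyond its spread, 3 of 11 rose and 2 fell, so that 5 of 11 passed beside 44.6% of all genes, with a median of -0.06, beside -0.01 over all genes. EZH2, the methyltransferase of Polycomb repressive complex 2, averaged 86.5 ± 6.8 CPM with the hairpins, against 122 ± 4.9 CPM with shRenilla, a log2 fold change of -0.50 (SE 0.0647, adjusted p = 2.32e-05, edgeR). The receptor tyrosine kinase MET had -0.59 (SE 0.206), at a mean of under 2 CPM in both groups. MET did not pass with shSS18-SSX1-2 alone (adjusted p = 0.147, edgeR) or with DESeq2 (adjusted p = 0.0597). Nor did it pass without shRenilla replicate 2 or 3 (-0.45 and -0.49), shSS18-SSX1-1 replicate 1 or 3 (-0.56 and -0.55) or shSS18-SSX1-2 replicate 1 or 2 (-0.53 and -0.54). The genes that rose were CAV1 and CAV2 and the hyaluronan receptor CD44, with 1276 reads over the hairpin libraries and 3 over shRenilla. Each of them reached the test only through the hairpin libraries and could hardly come out lower, so nothing is read from these rises. MET, CD44, CAV1 and CAV2 were named after their values were seen. With dBRD9A 0 of 8 rose and 5 fell, none past 1.5-fold and beside 35.9% of all genes that passed (0 rose at an unadjusted p under 0.05 or with DESeq2), with a median of -0.10, beside 0.01. IKBKB, a kinase of the NF-kappaB pathway, had -0.34 (SE 0.0585), the chromatin remodeller SMARCA2 -0.21 (SE 0.0342) and MTOR -0.15 (SE 0.0384). HIF1A, a hypoxia-inducible transcription factor subunit, at -0.10 also passed and was named after its values were seen. HIF1A no longer passed with DESeq2, or without DMSO replicate 3 (-0.08) or dBRD9A replicate 1 or 3 (-0.10 and -0.08). In the fit of all 15 libraries 2 of these 8 were lower.

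Transcription factors of mesenchyme include the E-box binding proteins described as acting on DNM3OS. TWIST1 averaged 357 ± 15 CPM with dBRD9A, against 390 ± 18 CPM with DMSO, a log2 fold change of -0.11 (SE 0.0329, adjusted p = 0.00655, edgeR). It averaged 95.2 ± 6.1 CPM with the hairpins, against 108 ± 7.8 CPM with shRenilla, and did not pass (-0.19, SE 0.0752). It no longer passed with dBRD9A when dBRD9A replicate 3 was left out (-0.09). In the knockdown 4 of 11 rose, 2 of them past 1.5-fold, and 1 fell, so that 5 of 11 passed beside 44.6% of all genes, with a median of 0.10, beside -0.01. SNAI1 rose by 3.31 (SE 0.165), ZEB2 by 0.82 (SE 0.100), TCF4 by 0.46 (SE 0.0641) and ZEB1 by 0.43 (SE 0.0664). TCF3 had -0.29 (SE 0.0923), and no longer passed without shRenilla replicate 1 or 3 (-0.26 and -0.21), shSS18-SSX1-1 replicate 1 or 3 (-0.27 and -0.23) or shSS18-SSX1-2 replicate 2 (-0.23). With dBRD9A 6 of 11 passed, beside 35.9% of all genes, and 2 rose, SNAI1 by 0.59 (SE 0.130) and SNAI2 by 0.12 (SE 0.0324). TCF12 at -0.26 (SE 0.0346), TCF4 at -0.20 (SE 0.0284) and TCF3 at -0.13 (SE 0.0300) fell beside TWIST1. SNAI1 and TWIST1 were named after their values were seen, and in the fit of all 15 libraries 1 factor was lower in place of 4.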

How the data were processed

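Per the labels and the study's methods, the authors sequenced RNA as 75-base single-end reads, aligned it with STAR to hg19 (GRCh37), counted reads per RefSeq transcript with featureCounts and deposited raw counts. The sources used here give neither versions nor the strand setting. The tables hold 0 spike-in rows, so a fall shared by all genes would not show. In 1 table (dBRD9A replicate 2), 4535 broken gene symbols were mended, and 78 of 80 symbols turned into dates were restored. For each gene the transcript row with the highest total was kept. Counts were tested with edgeR 4.0.16 (R 4.3.3, quasi-likelihood test, TMM scaling, minimum count 10) within each experiment, with Benjamini-Hochberg adjustment over all genes tested. CPM values use TMM factors of all 15 libraries. Values after ± are SDs, and SE is that of the log2 fold change. Alternatives were other scalings and filters, summed rows, fits without single libraries, DESeq2 1.42.0 and voom in limma 3.58.1. The main edgeR fit of each experiment was tested on simulated data, for dBRD9A minus DMSO and for the knockdown minus shRenilla. The comparison between the hairpins and the alternatives were not simulated. Locus positions are from GENCODE on GRCh37, and MIR3120 was placed by matching its RefSeq hairpin to that genome. Members and lists were chosen with earlier results of these data known. Every tested neighbour of DNM3 and every microRNA precursor row is named. Named genes of the other lists are at most 3 a direction, the largest changes that passed among genes averaging 5 CPM or more over all libraries, and others are said to be named after their values were seen. The labels do not say that replicates are separate cultures, so p-values measure the spread between libraries.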

Additional observations from a re-analysis of the deposited data

Results flagged for a closer look

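Among the genes of the lists, 3 differed between the hairpins by the edgeR test within the shRNA experiment (shSS18-SSX1-2 minus shSS18-SSX1-1). CD44 differed by 1.12 on the log2 scale (SE 0.163, adjusted p = 0.0124), with 13.0 ± 2.1 CPM under shSS18-SSX1-2 and 5.89 ± 1.05 CPM under shSS18-SSX1-1 (SD, n = 3 each). The keratin KRT18 differed by 1.12 (SE 0.115) and its partner KRT8 by 1.06 (SE 0.108), both with an adjusted p of 0.000783 (edgeR). KRT18 averaged 83.6 ± 7.3 CPM under shSS18-SSX1-2 and 38.1 ± 0.67 CPM under shSS18-SSX1-1, and KRT8 averaged 57.5 ± 5.5 CPM under shSS18-SSX1-2 and 27.3 ± 1.7 CPM under shSS18-SSX1-1. SSX1 averaged 28.5 CPM under shSS18-SSX1-2 and 20.0 CPM under shSS18-SSX1-1, and the part of this difference was not tested.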

How the results depend on the processing

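DNM3 kept its direction in both comparisons under every alternative that kept the same transcript row, with log2 fold changes of -0.31 to -0.24 with dBRD9A and 0.998 to 1.201 in the knockdown when single libraries were left out. The row NM_001278252 in its place gave 0.15 with dBRD9A and 0.43 in the knockdown. DNM3OS with dBRD9A stayed near 0 but changed sign, at 0.012 with rows summed, 0.00299 with total count scaling and 0.00624 with upper quartile scaling, against -0.019 in the fit of all 15 libraries and -0.0194 to -0.00958 without single libraries. Genes called between dBRD9A and DMSO numbered 386, 256 with DESeq2, 4906 with no fold threshold and 116 with a fold above 2. In the knockdown they numbered 2622, 6368 with no fold threshold and 1394 with a fold above 2. Between the hairpins they numbered 17, 87 with DESeq2, 26 with DESeq2 size factors, 106 in the fit of all 15 libraries, 78 with no filter on low counts, and 5 to 60 without single libraries, 60 without shRenilla replicate 1 and 55 without shRenilla replicate 2. With the replicate number as a block the 3 counts were 396, 2616 and 13. Deviations from the group means of same-numbered dBRD9A and DMSO libraries correlated at -0.0558, 0.0324 and -0.0326. Those of shSS18-SSX1-1 and shRenilla correlated at -0.278, -0.406 and -0.333, of shSS18-SSX1-2 and shRenilla at -0.0509, 0.354 and 0.182, and of both hairpins at 0.173, -0.439 and -0.375. Differently numbered libraries ran from -0.345 to 0.518. As deviations from a mean of 3 libraries sum to 0, these values cannot decide whether replicate numbers pair the libraries. Counting error limits the NM_001278252 row, the hairpin rows and the genes near 0 most.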
